A study of Saccharomyces cerevisiae with 2 samples.

Results

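The 25S rRNA is the large RNA of the 60S ribosomal subunit of Saccharomyces cerevisiae, and its coverage was described nucleotide by nucleotide in npl3∆ and wild type cells. Its 3396 nucleotides make up 49.5% of the 6858 nucleotides of the 35S rRNA, the primary transcript from which the mature rRNAs are cut. They were taken as the rows 262 to 3657 of the deposited coverage, which runs from the 3′ end of the transcript, and were numbered here from 1 at the 5′ end of the 25S rRNA. The counts of RDN25-1 and RDN25-2, the 25S genes of the 2 rDNA copies in the genome build, were added. Both libraries were RNA-seq of 200 ng of total RNA without rRNA depletion, 1 from npl3∆ and 1 from wild type, from cells grown at 25 °C. The npl3∆ cells lack NPL3, which encodes an mRNA-binding guard protein, and the study asked whether this protein takes part in the quality control of rRNA. NPL3 itself had 3 counts in npl3∆ and 1345 in wild type. Most strains of the study have the BY4741 background, and the labels do not name the strain of these libraries. With 1 library per genotype no difference below has a replicate check, and p-values are not given.

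The 25S rRNA folds into domains I to VI, which follow each other from the 5′ to the 3′ end and pack around domain V. Domain V holds the peptidyl transferase centre, where peptide bonds are made. Domain II carries the GTPase associated centre and domain VI the sarcin-ricin loop, which together contact translation factors. Helix 69 of domain IV bridges to the small subunit, and the L1 stalk of domain V lies beside the exit of the deacylated tRNA. Eukaryotic rRNA also carries expansion segments, insertions relative to bacterial rRNA, of which ES7L in domain I, ES27L in domain IV and ES39L in domain VI are long ones. During ribosome formation domains I, II and VI fold before domains III, IV and V take their final place. The borders of domains and expansion segments used here are textbook borders set on a grid of windows of 25 nt and are approximate.

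The functional sites were located by short motifs, each of which occurred once in the 25S rRNA and nowhere in its complement. Their sequences are shown because the coverage at these sites is compared below. The sequence and the positions on chromosome XII, minus strand, are from the RefSeq copy of the build R64, which is sacCer3, at rDNA copy 1, and 0 nucleotides differ between its 2 copies of the 25S rRNA. Capitals mark the motif, with 25 nt on either side.
GTPase associated centre (25S nucleotides 1230 to 1288, chrXII:453894-453952): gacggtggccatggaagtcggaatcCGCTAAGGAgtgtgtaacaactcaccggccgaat
Helix 69 (25S nucleotides 2230 to 2288, chrXII:452894-452952): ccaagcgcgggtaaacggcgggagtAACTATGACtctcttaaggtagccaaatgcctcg
Peptidyl transferase centre (25S nucleotides 2791 to 2849, chrXII:452333-452391): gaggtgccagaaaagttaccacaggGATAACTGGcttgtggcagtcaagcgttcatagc
Sarcin-ricin loop (25S nucleotides 3001 to 3059, chrXII:452123-452181): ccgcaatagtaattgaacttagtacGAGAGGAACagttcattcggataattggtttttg

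The regions in which the libraries differed most are shown next, chosen by their coverage. A run was defined as at least 25 consecutive nucleotides whose log2 quotient of coverage, npl3∆ over wild type and centred on the summed 25S coverage, was at least 0.5 or at most -0.5. Only nucleotides 913 to 992 of domain II met this rule. At a limit of 0.3 the longest lower runs were nucleotides 1973 to 2068, within ES27L, and 1328 to 1410 of domain II, and another higher run covered nucleotides 1125 to 1188 of domain II. Capitals mark the run, with 10 nt on either side.
Higher run of domain II (25S nucleotides 903 to 1002, chrXII:454180-454279): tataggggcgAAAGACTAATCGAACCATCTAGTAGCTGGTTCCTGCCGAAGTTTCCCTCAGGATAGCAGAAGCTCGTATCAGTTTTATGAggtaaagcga
Second higher run of domain II (25S nucleotides 1115 to 1198, chrXII:453984-454067): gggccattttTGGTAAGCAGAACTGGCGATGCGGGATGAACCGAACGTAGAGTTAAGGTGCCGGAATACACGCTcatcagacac
Lower run of domain II (25S nucleotides 1318 to 1420, chrXII:453762-453864): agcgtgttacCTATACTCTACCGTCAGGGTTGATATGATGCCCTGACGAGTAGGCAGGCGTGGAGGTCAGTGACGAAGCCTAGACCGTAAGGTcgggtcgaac
Lower run of ES27L (25S nucleotides 1963 to 2078, chrXII:453104-453219): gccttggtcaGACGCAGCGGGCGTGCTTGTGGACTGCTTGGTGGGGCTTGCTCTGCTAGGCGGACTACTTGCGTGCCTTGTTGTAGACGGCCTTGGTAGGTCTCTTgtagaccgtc

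The 25S rRNA as a whole was slightly lower in npl3∆. RDN25-1 had 65858362 counts in npl3∆ and 67636496 in wild type, and RDN25-2 had 65981539 and 67665552. The counts of the copies differed by 0.187% in npl3∆ and by 0.0430% in wild type, and whether the copies hold the same reads was not determined. The ratio of the mean counts was 0.974 (95% exact conditional binomial interval 0.9741 to 0.9747), as deposited and without scaling. Such intervals cover counting error at most, and not the variation between libraries, of which 1 library per genotype gives no estimate. They treat each count as independent, although reads that carry no molecular identifier may stem from the same molecule. At this depth they are far narrower than the shifts that another denominator brings. Of the 35S counts, the 25S rRNA held 67.9% in npl3∆ and 65.9% in wild type. The 25S rRNA had 1.12 counts per nucleotide for each count per nucleotide of the 18S rRNA in npl3∆ and 1.03 in wild type. So the 25S rRNA was lower in npl3∆ by the counts as deposited, and higher per 18S rRNA, whose own ratio was 0.898. The features other than nuclear rRNA, its spacers and the genes YLR154C-G and TAR1 within the 25S rRNA summed to 6674796 counts in npl3∆ and 4799318 in wild type. Relative to this sum, from which mitochondrial rRNA was not taken out, the ratio of the 25S rRNA was 0.701. The count table held 401753674 counts in npl3∆ and 421789474 in wild type. In this total the 35S features stand beside the 25S and 18S features that lie within them, for both rDNA copies. It therefore counts reads more than once and is not the size of a library.

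Coverage, the number of fragments over a nucleotide, had nearly the same shape in both libraries. It averaged 1366946 in npl3∆ and 1412115 in wild type over the 25S rRNA, with medians of 1198250 and 1237225. The highest coverage stood at the border of domains II and III, with 5045500 at nucleotide 1441 in npl3∆ and 5904000 at nucleotide 1440 in wild type. The lowest lay at the 3′ end, with 93.5 at nucleotide 3395 in npl3∆ and 164 at nucleotide 3394 in wild type. The coefficient of variation over the nucleotides was 0.653 in npl3∆ and 0.695 in wild type. Over 136 windows of 25 nt, the log2 coverage of the libraries correlated with Pearson's r = 0.991 and Spearman's rho = 0.958, a description over windows that share fragments with their neighbours. Without the 3 windows at the 3′ end, of which the last 2 were far lower than all others, r was 0.977.

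**Figure D1:**
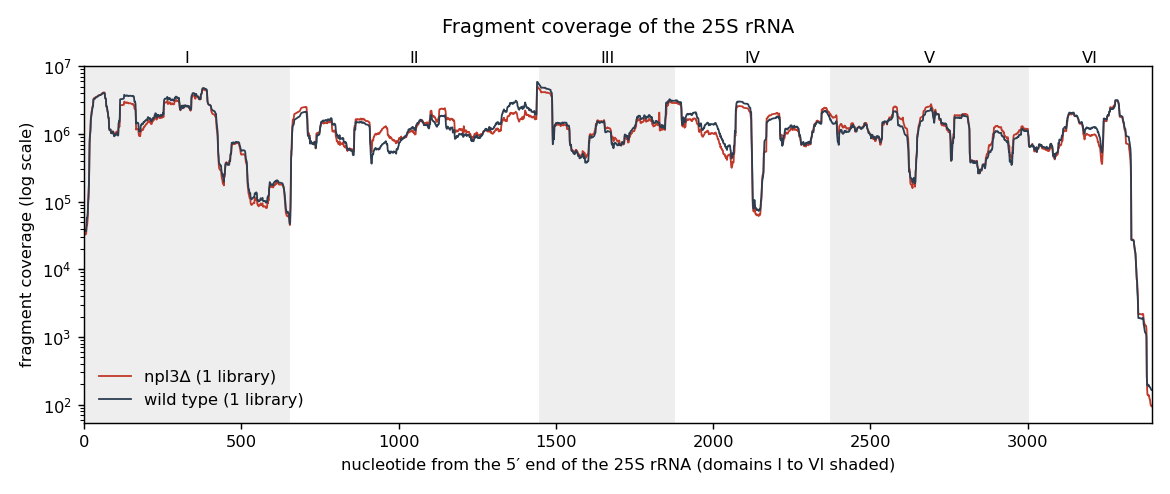
Fragment coverage on a log axis against the nucleotide of the 25S rRNA, for the npl3∆ library (red) and the wild type library (dark), with domains I to VI shaded in turn. Peaks and troughs of the curves coincide, from the maximum of 5045500 in npl3∆ and 5904000 in wild type near nucleotide 1440 to the steep loss of coverage after nucleotide 3329.

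The difference between the libraries was small at most nucleotides and uneven along the molecule. The log2 quotient, npl3∆ over wild type, had a median of -0.05 and an SD of 0.25 over the 3396 nucleotides, and 80.7% of nucleotides lay within 0.3 of 0. In the 18S rRNA, the median was -0.19 and the SD 0.44, with 49.8% within 0.3 of 0. Coverage was higher in npl3∆ at 1428 nucleotides of the 25S rRNA, or 42.0%, against 44.5% over all nucleotides of the 35S rRNA. At least 0.5 above the centre lay 103 nucleotides, or 3.03% against 15% over the 35S rRNA, and at least 0.5 below it lay 39 nucleotides, or 1.15% against 9.01%. Nucleotides of the 25S rRNA that differed strongly were therefore a smaller share than in the 35S rRNA as a whole, in which they are counted too. Of the 103 higher ones, 97 were in domain II, and of the 39 lower ones, 17 were in domain II and 14 in domain VI. Those of domain VI lay only within nucleotides 3226 to 3250, 3326 to 3350 and 3376 to 3396. The last of these windows is at the 3′ end and had a mean coverage of only 312 in either library. The quotients of neighbours were alike, with a correlation of 0.98 at a distance of 1 nt, 0.45 at 50 nt and 0.19 at 100 nt, so that single nucleotides are not separate measurements.

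Domains II and V had medians above 0 and domains I, III, IV and VI medians below 0. Domain I, nucleotides 1 to 650, had a mean coverage of 1646794 in npl3∆ and 1787044 in wild type, and a median log2 quotient of -0.14. Domain II, nucleotides 651 to 1450, averaged 1380288 in npl3∆ and 1380105 in wild type, with a median of 0.10. Domain III, nucleotides 1451 to 1875, averaged 1478735 in npl3∆ and 1572047 in wild type, with a median of -0.08. The medians of these domains, like those of domains V and VI, stayed within 0.14 of 0. Domain IV, nucleotides 1876 to 2375, averaged 1328751 in npl3∆ and 1453675 in wild type and had the lowest median, -0.20. Domain V, nucleotides 2376 to 3000, averaged 1258782 in npl3∆ and 1147638 in wild type and had the highest median, 0.11. Domain VI, nucleotides 3001 to 3396, had the lowest mean coverage, 979613 in npl3∆ and 1054668 in wild type, with a median of -0.07. This mean includes nucleotides 3329 to 3396, which had only 0.666% of the 25S mean in npl3∆ and 0.703% in wild type. The rank of domain VI without them was not determined. The medians of the highest and the lowest domain were 0.31 apart, beside an SD of 0.25 over single nucleotides. Domain V also held 92.1% of the mean 25S coverage in npl3∆ and 81.3% in wild type, and domain IV 97.2% and 102.9%.

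**Figure D2:**
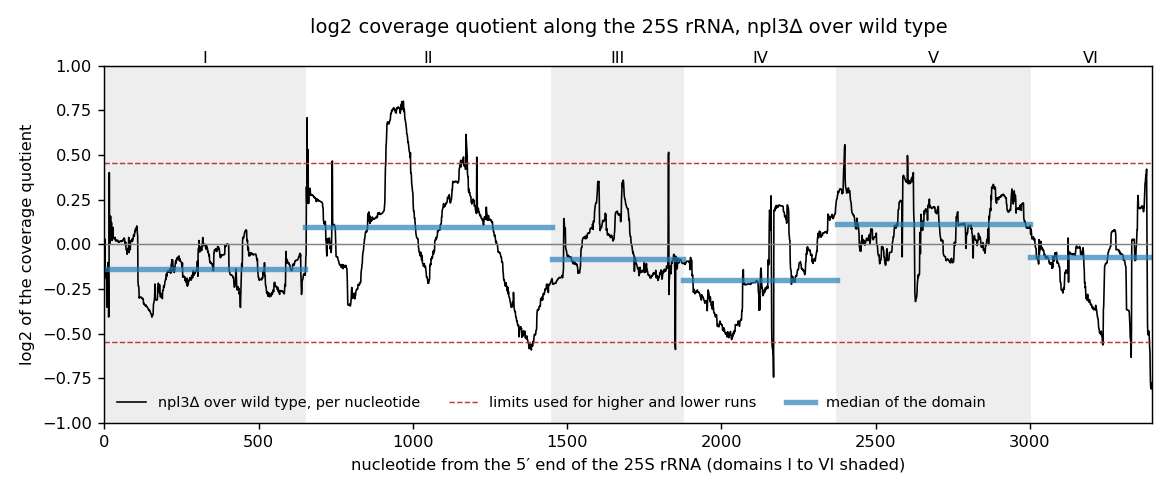
The log2 quotient of coverage, npl3∆ over wild type and as deposited, per nucleotide of the 25S rRNA, with the median of each domain (blue bars) and the limits of 0.5 on either side of the centre (dashed). The curve stays above the upper limit over nucleotides 913 to 992 in domain II, the medians run between -0.20 in domain IV and 0.11 in domain V, and the isolated spikes at steep edges of the coverage are a few nucleotides wide.

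Most windows of domains I and VI were lower in npl3∆ and most of domain V higher, while domain II was closer to an even split. Of the 26 windows of 25 nt in domain I, 4 were higher in npl3∆ and 22 lower, and the 4 higher ones were the most 5′ ones, nucleotides 1 to 100, at log2 quotients of at most 0.06. In domain V, 21 of 25 windows were higher in npl3∆ and 4 lower, and the 4 lower ones reached only -0.09. In domain VI, 3 of 16 were higher and 13 lower. Domain II had 19 higher and 13 lower windows and the widest range, with quotients between -0.54 and 0.76. In domain III, 6 of 17 windows were higher, and these were nucleotides 1551 to 1700 in an unbroken row. Domain IV had 5 higher and 15 lower windows, and all windows of its 5′ part down to nucleotide 2175 were lower. Over the whole 25S rRNA 58 windows were higher and 78 lower, with 23 changes of direction between neighbouring windows. Within the domains, the direction changed 1 time in domain I, 5 times in domain II, 2 times in domain III, 3 times in domain IV, 6 times in domain V and 5 times in domain VI, so that the higher or lower windows of domains V and VI did not form an unbroken row.

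**Figure D3:**
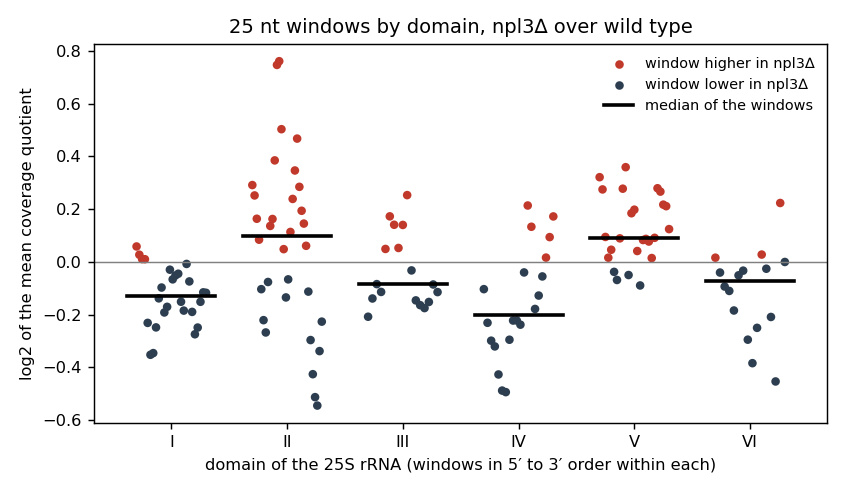
The log2 quotient of mean coverage, npl3∆ over wild type, of each of the 136 windows of 25 nt, placed by domain in 5′ to 3′ order, with the median of the windows as a black bar. Windows of domain V are mostly above 0 (21 of 25) and those of domain I mostly below (22 of 26), while domain II spans -0.54 to 0.76.

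In domain II, nucleotides 913 to 992 were covered 1.64 times as deeply in npl3∆. Their mean coverage was 980762 in npl3∆ and 599419 in wild type (ratio 1.636, 95% interval 1.631 to 1.641, where the mean coverage was taken as the number of fragments). Coverage at nucleotide 913 was 546650 in npl3∆ and 372150 in wild type, and at nucleotide 952 it was 1232000 and 722750. The run therefore lay in a part of the 25S rRNA with less than average coverage, at 71.7% of the 25S mean in npl3∆ and 42.4% in wild type. At nucleotide 969 the quotient was at its highest in the 25S rRNA, with 946450 in npl3∆ and 542900 in wild type, a log2 quotient of 0.80. At the 3′ border, nucleotide 992, coverage was 730750 in npl3∆ and 512250 in wild type. Just inside the borders the centred log2 quotient was 0.60 at nucleotide 913 and 0.56 at nucleotide 992, and just outside it was 0.49 at 912 and 0.45 at 993. The 50 nt on the 5′ side had a mean coverage of 1540786 in npl3∆ and 1373510 in wild type, and the 50 nt on the 3′ side 931411 and 918117. In both libraries coverage thus dropped on entering the run from the 5′ side, and it dropped further in wild type.

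The windows of domain II followed a wave on either side of this run. Nucleotides 651 to 750 were higher in npl3∆, by 0.29 on the log2 scale in their first window, and nucleotides 751 to 850 were lower, with log2 quotients down to -0.27. The second higher run, nucleotides 1125 to 1188, had a mean coverage of 1790144 in npl3∆ and 1370623 in wild type, and its window of nucleotides 1151 to 1175 had 1656100 and 1197840, a log2 quotient of 0.47. Toward the 3′ end of the domain the sign turned. The lower run, nucleotides 1328 to 1410, had 1824590 in npl3∆ and 2554759 in wild type, a ratio of 0.714. Its window of nucleotides 1376 to 1400, with 1705560 in npl3∆ and 2488160 in wild type, was the lowest of all 136 windows by its log2 quotient of -0.54. Higher and lower stretches of domain II nearly cancelled in its mean, which had a ratio of 1.00.

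**Figure D4:**
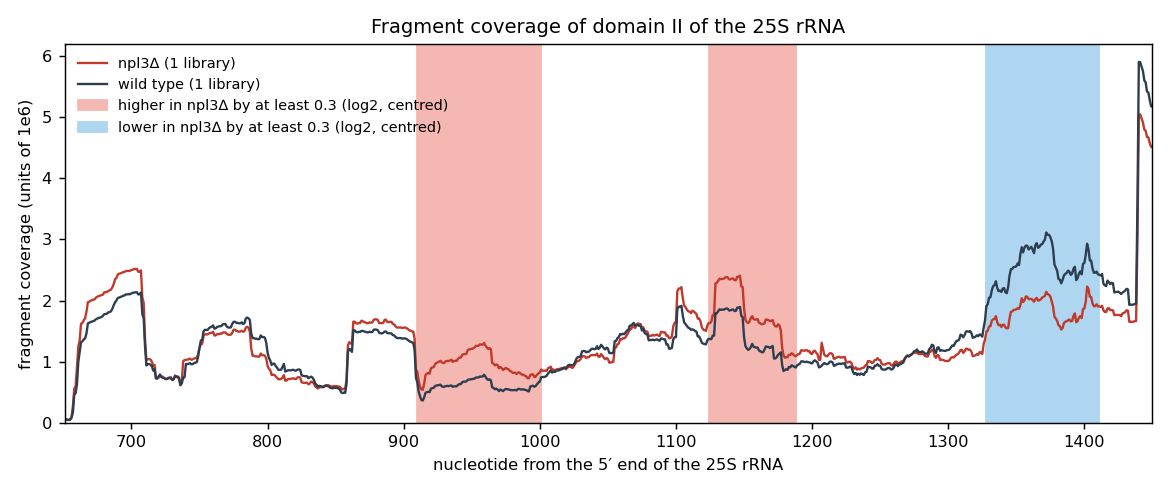
Fragment coverage in units of 1e6 over domain II, nucleotides 651 to 1450, for npl3∆ (red line) and wild type (dark line). Red bands mark the runs in which the centred log2 quotient was at least 0.3 (nucleotides 910 to 1000 and 1125 to 1188), where npl3∆ lies above wild type, and the blue band the run of at most -0.3 (nucleotides 1328 to 1410), where it lies below.

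At the limit of 0.3, the 25S rRNA held 8 runs, 5 higher and 3 lower in npl3∆, and domain V held higher runs only. At least 0.3 above the centre lay 359 nucleotides (10.6%, against 21.9% over the 35S rRNA), 197 of them in domain II and 130 in domain V. At least 0.3 below it lay 295 nucleotides (8.69%, against 18%), 108 of them in domain IV, 89 in domain II, 70 in domain VI and 0 in domain V. The higher runs of the 3′ part were nucleotides 2375 to 2417 at the start of domain V, with 1492577 in npl3∆ and 1200980 in wild type, 2588 to 2622, with 1413319 and 1095919, and 2899 to 2923, with 1238660 and 1027932. Their ratios were 1.24, 1.29 and 1.21, so that each was smaller than that of nucleotides 913 to 992. Domain VI held a lower run at nucleotides 3214 to 3238, within ES39L, with 698412 in npl3∆ and 953128 in wild type.

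Of the expansion segments, ES7L, ES27L and ES39L were examined, and the mean coverage of each was lower in npl3∆, with the lowest ratio of these 3 in ES27L. ES27L, nucleotides 1951 to 2100, which is known as a flexible arm near the peptide exit tunnel, had a mean coverage of 1137852 in npl3∆ and 1435853 in wild type, and coverage was lower in npl3∆ at each of its 150 nucleotides. The ratio was 0.792 (95% interval 0.791 to 0.794), and the median log2 quotient was -0.43. Within it, nucleotides 1973 to 2068 had 744029 in npl3∆ and 1019743 in wild type, a ratio of 0.730, and the sides of this run were lower as well, at a log2 quotient of -0.30 over the 50 nt on the 5′ side and of -0.22 over those on the 3′ side. ES7L, nucleotides 426 to 625, was thinly covered in both libraries, with 290022 in npl3∆ and 314445 in wild type, or 21.2% and 22.3% of the 25S mean. Its ratio was 0.922, the same to 3 digits as that of domain I around it. ES39L, nucleotides 3151 to 3300, had 1524932 in npl3∆ and 1644786 in wild type, a ratio of 0.927, beside 0.929 for domain VI. The ratio of ES27L, in contrast, lay below that of domain IV, 0.914. This contrast holds for mean coverage, and each domain includes its segment. By the median log2 quotient, each of the segments lay below its domain. ES7L had -0.17 and domain I -0.14, ES27L -0.43 and domain IV -0.20, and ES39L -0.10 and domain VI -0.07.

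Of the functional sites, helix 69 differed most between the libraries, and the ratios of the others lay between 0.986 and 1.04. The GTPase associated centre had a mean coverage of 1019218 in npl3∆ and 978047 in wild type, a ratio of 1.04. Helix 69 had 1036866 in npl3∆ and 1136362 in wild type, a ratio of 0.912, and was lower in npl3∆ at all 59 nucleotides, as were the 3 windows of nucleotides 2226 to 2300. The peptidyl transferase centre had 989485 in npl3∆ and 949254 in wild type, a ratio of 1.04, and the L1 stalk, nucleotides 2426 to 2525, had 1161494 and 1133798, a ratio of 1.02. Both thus lay below the ratio of domain V, 1.10. The sarcin-ricin loop had 652553 in npl3∆ and 661716 in wild type, a ratio of 0.986 (95% interval 0.983 to 0.990), and its log2 quotient stayed between -0.11 and 0.11. In each of these sites the direction was that of the site's domain by its median.

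**Figure D5:**
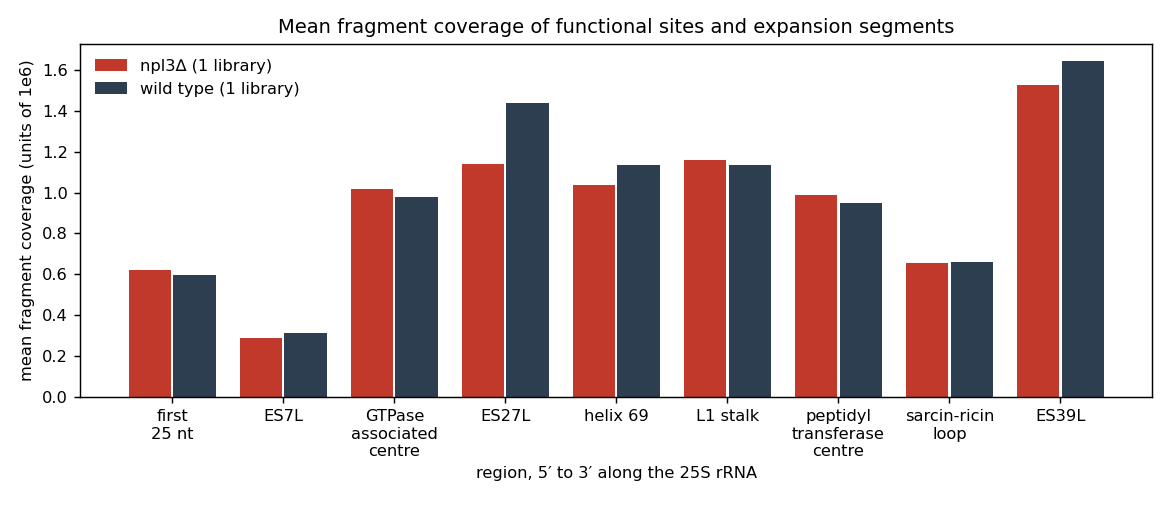
Mean fragment coverage, in units of 1e6, of the named sites and expansion segments, in 5′ to 3′ order, with the npl3∆ bar left of the wild type bar, 1 library each and therefore without error bars. ES27L shows the widest gap, with 1137852 in npl3∆ and 1435853 in wild type, and the bars of the sarcin-ricin loop are nearly equal.

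Coverage was far below the average in the same places in both libraries. By a rule chosen after the values were seen, at least 10 consecutive nucleotides under 20% of the 25S mean in both libraries, 6 stretches were found. Under 20% lay 294 nucleotides in npl3∆ and 297 in wild type, of which 291 were shared. The sequences of 3 of these stretches, 1 each in domains I and II, IV and V, and that of the 3′ end are shown because they are the places where the 25S rRNA is least well measured. Capitals mark the stretch, with 5 nt around it where the 25S rRNA goes on.
Domains I and II (25S nucleotides 514 to 662, chrXII:454520-454668): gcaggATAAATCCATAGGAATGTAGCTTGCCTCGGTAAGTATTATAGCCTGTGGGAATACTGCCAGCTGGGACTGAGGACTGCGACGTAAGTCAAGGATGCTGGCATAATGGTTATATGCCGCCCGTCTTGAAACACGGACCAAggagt
Domain IV (25S nucleotides 2120 to 2164, chrXII:453018-453062): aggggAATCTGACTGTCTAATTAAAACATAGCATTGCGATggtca
Domain V (25S nucleotides 2621 to 2648, chrXII:452534-452561): gcggcACATCTGTTAAACGATAAcgcag
3′ end (25S nucleotides 3324 to 3396, chrXII:451786-451858): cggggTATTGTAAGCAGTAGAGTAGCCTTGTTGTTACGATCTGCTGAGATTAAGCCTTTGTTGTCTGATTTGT

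The longest of these stretches was nucleotides 519 to 657, at the 3′ end of ES7L and of domain I, with 122702 in npl3∆ and 136814 in wild type. Both libraries had their lowest value there at nucleotide 654. In domain IV, nucleotides 2125 to 2159 had 99204 in npl3∆ and 106421 in wild type, and the lowest value of both was at nucleotide 2145. In domain V, nucleotides 2626 to 2643 had 185414 in npl3∆ and 214925 in wild type. These stretches held between 7.26% and 15.2% of the 25S mean in either library, and their ratios were 0.897, 0.932 and 0.863. The short stretch of nucleotides 437 to 447 in ES7L had 210605 in npl3∆ and 246318 in wild type. At the 5′ end, nucleotides 1 to 15 had 60301 in npl3∆ and 71226 in wild type, and over nucleotides 1 to 25 as a whole the ratio was 1.04. The 3′ end, nucleotides 3329 to 3396, was the poorest, with 9098 in npl3∆ and 9922 in wild type, or 0.666% and 0.703% of the 25S mean. In the last 25 nt, nucleotides 3372 to 3396, mean coverage was 502 in npl3∆ and 452 in wild type. The 95% interval of the ratio, 0.976 to 1.26, included 1. Most of these nucleotides were nevertheless lower in npl3∆, with 8 of the 25 higher and a median log2 quotient of -0.50.

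Edges of the coverage also fell at the same nucleotides. A change of at least 0.5 on the log2 scale between neighbours occurred at 57 places in npl3∆ and 51 in wild type, of which 42 were shared (73.7% of those in npl3∆ and 82.4% of those in wild type), all 42 with the same direction. Of changes of at least 1, there were 12 in npl3∆ and 10 in wild type, and 9 were shared. The steepest edge lay in domain VI, where coverage was 160250 at nucleotide 3329 and 27650 at nucleotide 3330 in npl3∆, and 225400 and 27190 at the same nucleotides in wild type. In domain IV, coverage at nucleotide 2169 was 553200 in npl3∆ and 926900 in wild type, and at nucleotide 2170 it was 1699000 and 1491500. There the edge was sharper in npl3∆, by 1.62 against 0.69 on the log2 scale, and the quotient changed its sign within 1 nt.

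Of the genes annotated by RefSeq, 2 others lie within the 25S rRNA, and both are count features. Count features without a RefSeq gene were not searched. YLR154C-G, on the strand of the 25S rRNA at its nucleotides 1648 to 1797 in domain III and listed at rDNA copy 2, had 5281984 counts in npl3∆ and 5555957 in wild type, a ratio of 0.951. Its reads cannot be told apart from those of the 25S rRNA. TAR1, which lies on the opposite strand over nucleotides 112 to 486 of domain I at rDNA copy 1, had 4596 counts in npl3∆ and 7829 in wild type. Its ratio of 0.587 (95% interval 0.566 to 0.609) was below that of the 25S rRNA itself, but per nucleotide TAR1 held only 0.0631% of the 25S counts in npl3∆ and 0.105% in wild type.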

How the data were processed

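Per the labels, the libraries were prepared with a stranded total RNA kit. According to the study's methods and the submitters' processing notes, reads were mapped with HISAT2 to sacCer3 (R64) and the authors counted them per feature with featureCounts. The counts were deposited raw, as integers. The deposited coverage signal gives, for each nucleotide of the reverse strand, how many fragments span it, as the authors obtained it with deeptools2 at a bin size of 1 and with no scaling between libraries. Tool versions, the annotation and the treatment of reads with several places are not given in the sources used here. The coverage values appear rounded to a few significant digits. Of the 25S nucleotides with a coverage of at least 1000000, 85.4% in npl3∆ and 87.1% in wild type hold a multiple of 500. Whether the rDNA copies were averaged is not stated, and the lowest value in npl3∆, 93.5, is not a whole number of fragments.

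The header of the coverage table names the 5′-3′ direction, yet row 1 was read as the 3′ end. Read so, the spacers had 1.10% of the mean coverage of the mature rRNAs in npl3∆ and 0.738% in wild type, and read the other way 65.3% and 59.7%. The table holds 50 nt on either side of the 35S rRNA.

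The log2 quotient was formed per nucleotide without a pseudocount or filter, as in the study's methods, and for runs it was centred on the summed 25S coverage (log2 ratio -0.05). Intervals are 95% exact conditional binomial (Clopper-Pearson) intervals. No model was fitted, and no sample or column was left out. The regions named are the domains, sites and expansion segments, all runs, the first and last 25 nt and the 5 highest and 5 lowest windows, of which the text gives those that matter for a result. Members, lists and limits were chosen with earlier results of these data known. Alternatives concern the denominator, domain borders, window width, run limits and the ends. The interval and run functions were tested on simulated data with independent nucleotides and counts. Neighbouring nucleotides of the real data are alike, so this tested the functions and not how well the intervals hold for these data. Python 3.11.15 was used with scipy 1.17.1, numpy 2.4.6 and matplotlib 3.10.9, and folding energies were obtained with RNAfold 2.7.2.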

Additional observations from a re-analysis of the deposited data

How the results depend on the processing

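The 25S count ratio of 0.974 was 0.974 with RDN25-1 alone, 0.975 with RDN25-2 alone and 0.968 from summed coverage. It was 1.02 after division by the total of the count table and 1.09 after division by the 18S counts, both in the other direction. Relative to the summed features other than nuclear rRNA it was 0.701. Most of the total was rRNA, counted in the 35S features and again in the 25S and 18S features, so that it does not measure library depth. The share of nucleotides higher in npl3∆, 42.0%, became 49.4% when centred on the 25S coverage and 57.1% when centred on the 35S coverage. It became 2.83% when centred on the summed features other than nuclear rRNA. With the last centring the medians of domains II and V turned to -0.38 and -0.36. The order of domains did not depend on it. Of 42 alternatives for the domain medians, 36 moved them by less than the spread over nucleotides and kept the direction, 4 moved them further and 2 reversed them. Some of the 36 could not have come out otherwise. Leaving out the ends does not touch domains II to V, and centring on the 25S coverage shifts all medians alike by only 0.05. The tally is therefore no measure of how robust the medians are. The range over domains of 0.31 was 0.32 with borders 50 nt towards the 5′ end, 0.25 with borders 50 nt towards the 3′ end and 0.26 from mean coverage, and domain V was highest and domain IV lowest each time. The SD of 0.25 was 0.23, 0.22 and 0.21 over windows of 25, 50 and 100 nt and 0.24 without the last 3 windows, an alternative chosen after seeing the data. The 1 run became 8 at a limit of 0.3, 0 at a limit of 1, 2 without centring and 2 with a minimum of 10 nt. No paired analysis was possible because there was 1 library per genotype, and for the same reason no library could be left out. Coverage was thinnest at the 3′ end, and how far depth limits the other low stretches was not tested.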

Other observations

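Base composition and predicted folding were set beside the log2 quotient, npl3∆ over wild type, as a description over windows that share fragments and, within a library, depth. Over the 136 windows of 25 nt, the quotient and the GC content had r = -0.08 and rho = -0.11, and the quotient and the mean log2 coverage of both libraries had r = -0.03. Over 34 windows of 100 nt, the minimum free energy of the isolated window calculated by RNAfold and the quotient had r = 0.33 and rho = 0.29, which means that windows predicted to fold less stably tended to be relatively better covered in npl3∆. The same energy had r = 0.48 with the log2 coverage in npl3∆ and r = 0.38 in wild type. Isolated windows do not hold the long-range pairs of the ribosome, and these are weak correlations in 1 library per genotype.

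With a minimum of 10 nt in place of 25 nt, the limit of 0.5 gave a lower run beside the higher one, nucleotides 1374 to 1389 of domain II, with a mean coverage of 1732562 in npl3∆ and 2570031 in wild type. The GC content of this run was 68.8%, against 43.8% in the higher run of nucleotides 913 to 992 and 47.9% in the whole 25S rRNA. At the limit of 0.3 the ranges overlapped, with a GC content of 44% to 57.1% in the higher runs and 54.2% to 60.4% in the lower runs.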
